A study of Homo sapiens with 6 samples.

Results

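Genes of the actin cytoskeleton program that serum response factor controls, 10 in number, were described in human esophageal squamous cell carcinoma (ESCC) cells before and after editing of NFE2L2. They were SRF, ACTA2, ACTB, TAGLN, MYL9, TPM1, TPM2, CNN2, FLNA and VCL, taken by symbol from the 58884 genes of the deposited table, and each of the 10 symbols stood on 1 row. KYSE70 is an established ESCC cell line that carries a missense mutation in NFE2L2, the gene of the transcription factor NRF2. NRF2null-KYSE70 is a line grown from a single KYSE70 cell in which an exon of NFE2L2 had been cut with CRISPR-Cas9, leaving a frameshift and an early stop codon, while by the study's account a transcript of the gene that the guide does not reach is still made. In this line the study also saw a faint NRF2 protein band of lower molecular weight. Both lines were untreated cultures in RPMI1640 medium, and each gave 3 RNA-seq libraries that the labels name replicates. Because the null line is 1 clone, a difference between the groups was a difference between that clone and its parental line. Effects of the edited gene and of cloning cannot be told apart. Nothing in the sources used here says that libraries came from separate cultures, so p-values measured the spread between these libraries only, which may be technical.

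The libraries held 52072801 to 63975313 gene-assigned reads each. The targeted gene itself, NFE2L2 (ENSG00000116044), was at 9928 ± 102 normalized counts (SD, n = 3) in KYSE70. In NRF2null-KYSE70 it was at 6093 ± 318.8, which is 61.4% of that, and the lines did not overlap. Cutting a coding exon need not remove the transcript. All 10 squamous epithelial markers examined were detected, with summed normalized counts of 343484 to 350003 in KYSE70 and 254603 to 265142 in NRF2null-KYSE70. All 10 were tested, and 5 were higher and 5 lower in the null line at an adjusted p under 0.05 by limma. Among all tested genes, 29.3% were higher and 28.3% lower at that threshold. Of 8 smooth muscle markers, MYH11, DES, ACTG2, MYOCD and LMOD1 had mean counts under 10.

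Serum response factor (SRF) is a transcription factor that binds a short A/T-rich element with CC at one end and GG at the other, the CArG box. It works with partners of separate families. Myocardin-related transcription factors (MRTFA and MRTFB) are held back by free actin monomers and turn on genes of the cytoskeleton when actin polymerizes, whereas ternary complex factors (ELK1, ELK3 and ELK4) are phosphorylated by MAP kinases and turn on immediate early genes. The 10 genes comprise the factor itself, a cytoplasmic actin and a smooth muscle actin, proteins that bind or move along actin filaments, a crosslinker of filaments and a linker of filaments to adhesions. In a squamous epithelium these proteins serve cell shape, adhesion and migration, while ACTA2, TAGLN, MYL9 and TPM2 are best known from smooth muscle and myofibroblasts.

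The CArG boxes found near the start sites of some of these genes are shown first, because SRF binds this element. Promoter windows from 250 bases before to 50 bases after a start site were taken from RefSeq (GRCh38.p14). A window was found for 7 of the 10 genes, 10 windows in all, and ACTB, TAGLN and MYL9 had none. The CArG box was searched on both strands as CC, then 6 bases that are each A or T, then GG. Boxes with a C or G among the 6 bases were not searched for, so a window without a match may still hold such a box. It was found in 3 of the 7 genes, SRF, CNN2 and FLNA, and in 454 of 35116 windows (1.29%) or 438 of 27305 genes (1.60%) in the RefSeq table. The SRF window held a pair of boxes 10 bases apart. For comparison, 3 other actin cytoskeleton genes with a box are shown, ACTG1 because it was to be reported whatever its value, and SMTN and TPM4, which were chosen after their values were seen. Capitals mark the CArG box and lower case the bases on either side. The stretches lie at chr6:43171214-43171268 on the plus strand (SRF), chr19:1026494-1026553 on the plus strand (CNN2), chrX:154374694-154374753 on the minus strand (FLNA), chr17:81512859-81512918 on the minus strand (ACTG1), chr22:31084927-31084986 on the plus strand (SMTN) and chr19:16067340-16067399 on the plus strand (TPM4). Each is written 5′ to 3′ on the strand of its gene.
SRF: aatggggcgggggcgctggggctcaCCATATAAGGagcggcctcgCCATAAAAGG
CNN2: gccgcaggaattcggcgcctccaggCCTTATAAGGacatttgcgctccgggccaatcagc
FLNA: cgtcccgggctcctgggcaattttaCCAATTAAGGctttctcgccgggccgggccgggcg
ACTG1: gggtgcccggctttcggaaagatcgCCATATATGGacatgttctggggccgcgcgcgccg
SMTN: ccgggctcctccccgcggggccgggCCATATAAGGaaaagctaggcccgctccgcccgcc
TPM4: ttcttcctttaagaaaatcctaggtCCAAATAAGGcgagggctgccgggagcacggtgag

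The same 7 genes were searched for 3 other elements. In the letters below, N is any base. The pattern TGANTCA, which is wider than the AP-1 element it takes in, was found in 0 of them. It was in 7.71% of all windows and 9.37% of all genes with a window. The core of the antioxidant response element to which NRF2 binds, TGACNNNGC, was found in ACTA2, and in 13.3% of windows and 16.1% of genes. The TEAD element GGAATG was found in ACTA2 and VCL, and in 14.0% of windows and 16.7% of genes. No match overlapped a match of another element in these genes. A match is a run of letters and not a measured binding site. A window without a match says nothing of elements elsewhere, or of sites within it that depart from the letters searched.

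Levels of the 10 genes ran from no reads to among the highest in the table. Levels are compared between genes only per length, as RPKM, that is, recovered reads per kilobase of exon and per 1e6 reads of the library. Length is that of all annotated exons of a gene together, 14700 bases for TPM1 and 3640 for CNN2. It can differ from that of the transcripts present in these cells, so orders and shares by RPKM are approximate. In KYSE70 the order was ACTB at 879 RPKM, FLNA at 85.1, CNN2 at 52.9, VCL at 32.1, TPM1 at 11.3, SRF at 6.61, TAGLN at 0.111 and TPM2 at 0.0320 RPKM. ACTA2 stood at 0.00833 RPKM, and MYL9 had 0 reads in every library. The order in NRF2null-KYSE70 was the same down to SRF. TAGLN, at 0.177 RPKM, and TPM2, at 0.180 ± 0.115 RPKM (SD, n = 3), did not differ there beyond their spread. Together the 10 genes took between 0.533% and 0.573% of the reads of a library.

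**Figure D1:**
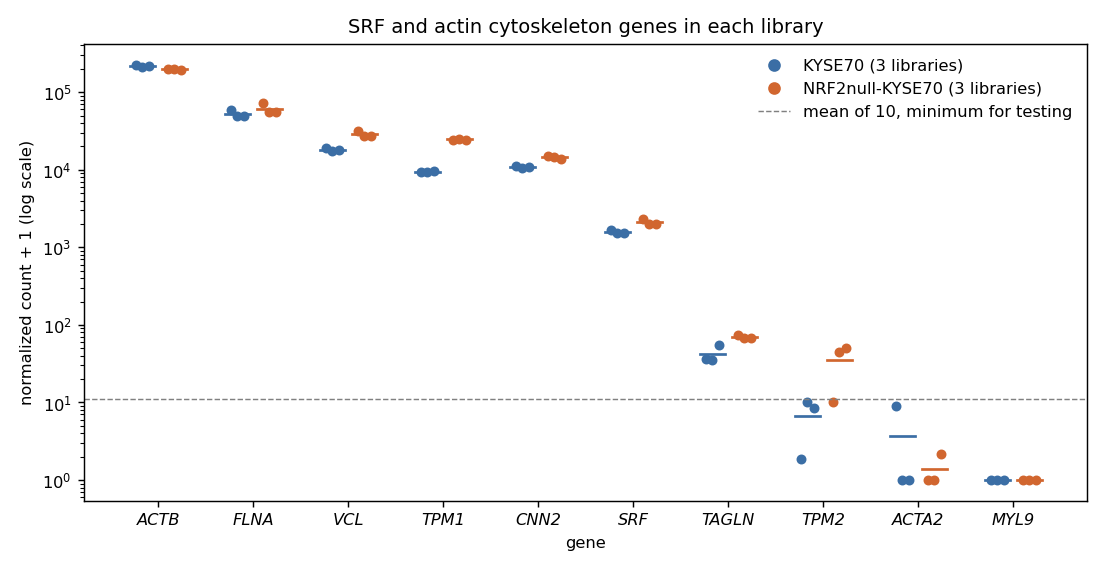
Normalized counts plus 1, on a log axis, of the 10 genes in each of 3 KYSE70 and 3 NRF2null-KYSE70 libraries, where points are libraries, short lines are means and the dashed line is the mean of 10 needed for testing. TPM1 shows the widest gap between the lines among the abundant genes, from at most 9591 to at least 24211 normalized counts, while FLNA overlaps, and ACTA2 and MYL9 lie at the bottom.

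Of the 10 genes, 8 had a mean of at least 10 normalized counts and were tested among 15994 genes with limma, with Benjamini-Hochberg adjustment over all of them. ACTA2 and MYL9 were not tested. SRF, TAGLN, TPM1, TPM2, CNN2 and VCL were higher in NRF2null-KYSE70 at an adjusted p under 0.05, ACTB was lower, and FLNA did not pass. Over all tested genes, 29.3% were higher and 28.3% lower at this threshold, so more than every second gene (57.6%) was called in one direction or the other. TPM1 and TPM2 also changed by at least 1 on the log2 scale, which 7.23% of tested genes did upward and 7.43% downward (14.7% in all). TPM2 reached the minimum for testing only through the null line, since its mean was 5.78 normalized counts in the parental and 34.1 in the null line, so its place in these counts followed in part from the filter. TPM1 was the other gene past both thresholds. The lines did not overlap for 7 of the 8 tested genes, all but FLNA, and for 63.4% of all tested genes. The median log2 fold change of the 8 tested genes was 0.53, and that of all tested genes was -0.0070. These counts describe genes that had passed a filter on their level and stand for no test of the group.

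**Figure D2:**
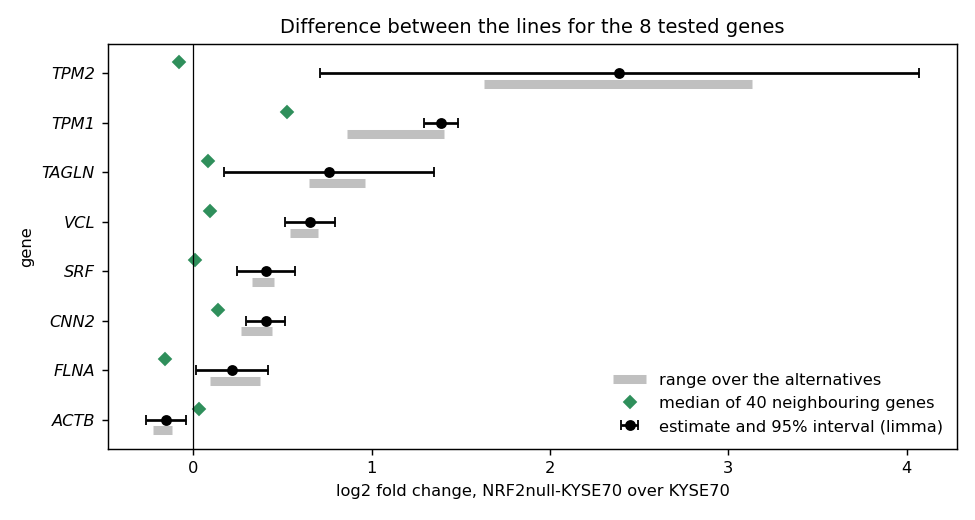
Log2 fold changes of NRF2null-KYSE70 over KYSE70 for the 8 tested genes with their 95% intervals from limma, the range over the alternative settings as grey bars below each point, and the median of the 40 neighbouring protein-coding genes as diamonds above it. TPM2 has the widest interval, 0.71 to 4.07, ACTB lies on the left of 0, and the TPM1 diamond stands at 0.53.

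SRF encodes the factor that binds the CArG box, and its own promoter window holds the pair of boxes shown above. SRF (ENSG00000112658, chr6:43171269-43181506, hg38) was at 1693, 1536 and 1537 normalized counts in KYSE70 and at 2328, 1996 and 2003 in NRF2null-KYSE70. The lines did not overlap, and in each line the library listed first was the highest. The means were 1589 ± 90.5 and 2109 ± 189.6 (SD, n = 3 each), a ratio of 1.33. The log2 fold change was 0.41 ± 0.075 (SE), with a 95% interval of 0.24 to 0.57 and an adjusted p of 0.000476 by limma. It stayed past the threshold under all 18 alternative settings, between 0.33 and 0.45.

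The actin genes of these cells were the cytoplasmic pair ACTB and ACTG1, whose products form the filaments themselves. ACTB (ENSG00000075624, chr7:5526409-5563902) was at 225869.9, 212823 and 220832 normalized counts in KYSE70 and at 199098, 199846 and 195062 in NRF2null-KYSE70. Its lowest parental library was therefore above its highest null library, and the mean in the null line, 198002 ± 2573, was 90.1% of the parental 219842 ± 6579 (SD, n = 3 each). The log2 fold change was -0.15, with a 95% interval of -0.26 to -0.038 and an adjusted p of 0.0249 by limma. The adjusted p was 0.101 without KYSE70 library 1, 0.0932 without KYSE70 library 3, 0.0594 without NRF2null-KYSE70 library 2 and 0.0817 without NRF2null-KYSE70 library 3. ACTB alone took 0.376% to 0.397% of the reads in KYSE70 and 0.328% to 0.334% in NRF2null-KYSE70.

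ACTG1 (ENSG00000184009), the gamma cytoplasmic actin, moved with a similar size, from 80152 ± 1560.2 to 73217 ± 1229 normalized counts, a log2 fold change of -0.13 and an adjusted p of 0.0263 by limma. Relative to its neighbours the ACTG1 difference was -0.058 (adjusted p = 0.308 by limma). With 1 library left out, its call was lost without KYSE70 library 1 (adjusted p = 0.0865), library 2 (0.0512) or library 3 (0.1002) and without NRF2null-KYSE70 library 3 (0.0779). Beside these values, 8 housekeeping genes outside the cytoskeleton had a median log2 fold change of -0.16, and all tested genes one of -0.0070. Of the 8, 3 were lower and 0 higher, against 28.3% lower and 29.3% higher among all tested genes. ACTB gave 71.6% of the actin RPKM in KYSE70 and 71.3% in NRF2null-KYSE70, and ACTG1 gave nearly all of the rest. Processed actin pseudogenes can share reads with ACTB. Of 30 such pseudogenes in the table, 12 had reads, and their summed mean was 0.0568% of the ACTB count.

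ACTA2 (ENSG00000107796, chr10:88935074-88991339) encodes smooth muscle alpha-actin, the classical marker of myofibroblasts. It was at 8.0, 0 and 0 normalized counts in KYSE70 and at 0, 0 and 1.14 in NRF2null-KYSE70, which are 9 reads against 1. A count of 0 in a library allows up to 3 reads, or 2.67 to 3.42 normalized counts, by counting error alone, so no fold is given. FAS, on the opposite strand, shares 387 exonic bases with ACTA2, and whether the counting used strand was not stated. The other muscle actins, ACTA1, ACTC1 and ACTG2, also stayed under a mean of 10.

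TPM1 and TPM2 encode tropomyosins, rod-shaped proteins that lie along the actin filament and govern which other proteins bind it. TPM1 (ENSG00000140416, chr15:63042620-63071915) was at 9270.4, 9378 and 9591 normalized counts in KYSE70 and at 24519, 25292 and 24211 in NRF2null-KYSE70. All null libraries lay above all parental libraries by a wide margin, and the means, 9413 ± 163 and 24674 ± 556.7 (SD, n = 3 each), differed 2.62-fold. The log2 fold change was 1.39 ± 0.043 (SE), with an adjusted p of 5.71e-11 by limma. Neighbouring genes moved the same way, with a median log2 fold change of 0.53 over the 40 nearest protein-coding genes. Relative to that median TPM1 was higher by 0.86 on the log2 scale, and it stayed past the threshold. An antisense gene, TPM1-AS, shares 2645 exonic bases with TPM1 but held a low mean of 16.2 normalized counts in KYSE70 and of 32.6 in NRF2null-KYSE70.

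TPM2 (ENSG00000198467, chr9:35681992-35690056) was a gene of few reads, at 0.889, 9.07 and 7.38 normalized counts in KYSE70 and at 9.13, 44.1 and 49.1 in NRF2null-KYSE70. Those values are 1, 10 and 7 reads against 9, 45 and 43 reads. The lowest null library stood just above the highest parental library after scaling and below it in reads. The means were 5.78 ± 4.32 and 34.1 ± 21.8 (SD, n = 3 each), and the log2 fold change was 2.39 ± 0.77 (SE) with an adjusted p of 0.0183 by limma. The parental mean alone was under the minimum of 10, so a gene at this parental level could be tested only if it was higher in the null line. The call was lost without KYSE70 library 1 (1.63, adjusted p = 0.0628), without NRF2null-KYSE70 library 2 (2.05, adjusted p = 0.0788) and without NRF2null-KYSE70 library 3 (1.98, adjusted p = 0.0851), all by limma.

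The tropomyosin genes, 4 in all, summed to 99.1 RPKM in KYSE70 and 97.3 RPKM in NRF2null-KYSE70, while their shares of that sum differed. In normalized counts, which are scaled by size factor and not by length, the sums were 78416 and 81549, the other direction. Shares below are of the RPKM sum. TPM1 gave 11.4% of it in KYSE70 and 28.8% in NRF2null-KYSE70, TPM3 gave 47.2% and 35.4%, and TPM4 gave 41.4% and 35.6%. TPM2 stayed at or under 0.18% in both lines. TPM3 was lower in the null line by 0.37 on the log2 scale (adjusted p = 9.06e-06 by limma), and its neighbours had a median of -0.26. Relative to that median the TPM3 difference was -0.10 and no longer passed (adjusted p = 0.0546 by limma). TPM4, whose promoter window holds the CArG box shown above, fell by 0.17 on the log2 scale (adjusted p = 0.00593 by limma). The relatives of the 10 genes in this and the following comparisons were chosen after their values were seen.

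**Figure D3:**
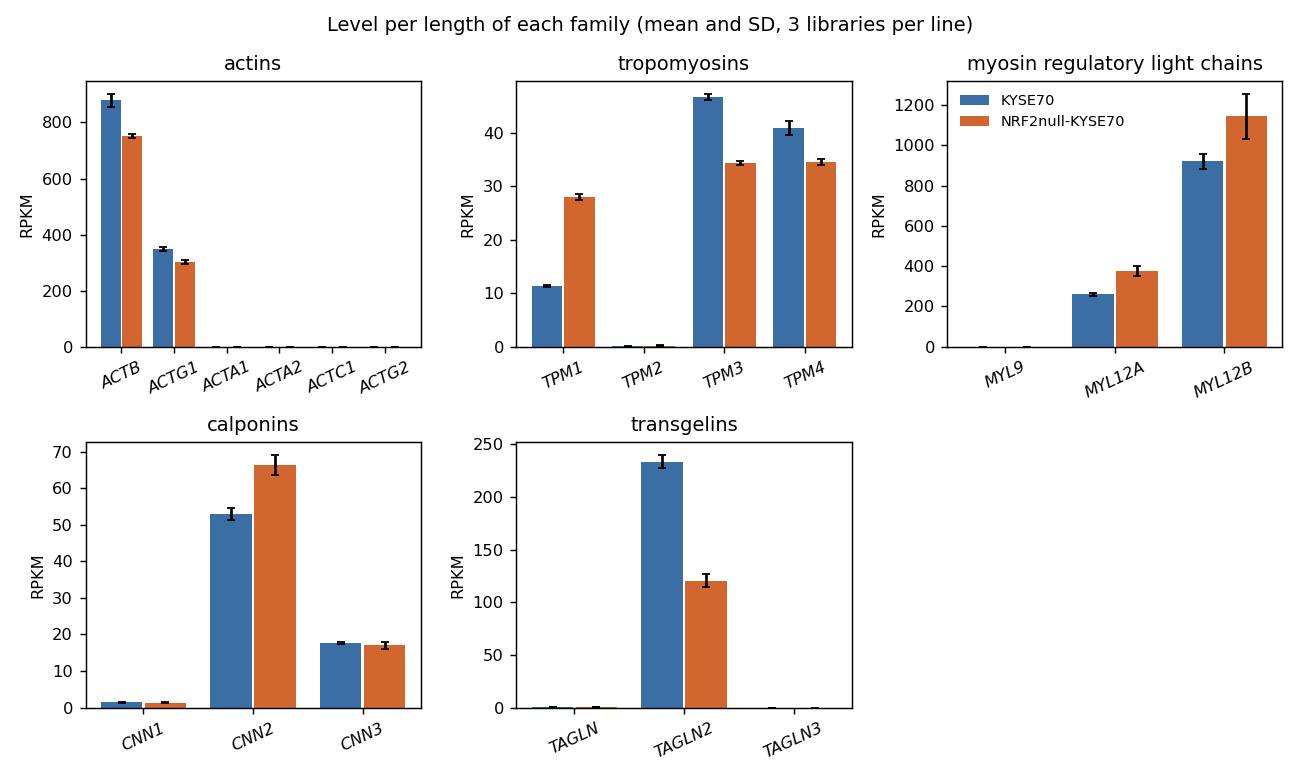
Mean level per length (RPKM, bars, with SD over 3 libraries per line) of the members of 5 gene families in KYSE70 and NRF2null-KYSE70, on a linear axis from 0 in each panel. TPM1 more than doubles its bar while TPM3 and TPM4 are lower, and TAGLN, TPM2, ACTA2 and MYL9 are at or near 0 beside their relatives.

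TAGLN encodes transgelin, an actin-bundling protein typical of smooth muscle. TAGLN (ENSG00000149591, chr11:117199370-117207464) was at 35.6, 34.5 and 53.8 normalized counts in KYSE70 and at 74.0, 67.7 and 66.2 in NRF2null-KYSE70. The lines did not overlap, though the third KYSE70 library lay closer to the null line than the others did. The means were 41.3 ± 10.8 and 69.3 ± 4.17 (SD, n = 3 each), with a log2 fold change of 0.76, a 95% interval of 0.17 to 1.35 and an adjusted p of 0.0287 by limma. The adjusted p rose to between 0.0527 and 0.0878 when any 1 library other than KYSE70 library 3 was left out. PCSK7, on the opposite strand, shares 2233 exonic bases with TAGLN, and its mean went from 1390.2 ± 87.0 to 891 ± 124.8 normalized counts, the other direction. Without a stated use of strand, reads of the shared bases cannot be told apart. TAGLN was a trace form in these cells, at 0.0474% of transgelin RPKM in KYSE70 and 0.147% in NRF2null-KYSE70. Its relative TAGLN2, which is the transgelin of many non-muscle cells, gave nearly all of it and fell by 0.88 on the log2 scale (adjusted p = 1.04e-08 by limma), from 30030.4 ± 851.5 to 16302 ± 783 normalized counts.

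MYL9 (ENSG00000101335, chr20:36541497-36551447) encodes a regulatory light chain of smooth muscle and non-muscle myosin II, and no library held a read of it. The regulatory light chains that were present were MYL12A and MYL12B, of which MYL12B gave 78.0% of the summed RPKM in KYSE70 and 75.3% in NRF2null-KYSE70. Both were higher in NRF2null-KYSE70, MYL12A by 0.60 and MYL12B by 0.38 on the log2 scale, with adjusted p of 1.04e-06 and 0.000303 by limma. Relative to their neighbours these were 0.38 and 0.21, both past the threshold. MYH9, the non-muscle myosin II heavy chain, was higher by 0.71 (adjusted p = 0.000212 by limma). The essential light chain MYL6 went the other way and fell by 1.23 on the log2 scale (adjusted p = 9.10e-08 by limma), from 17788 ± 1192 to 7603 ± 1053 normalized counts, in a neighbourhood with a median of -0.61, relative to which it was lower by 0.62 and passed.

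CNN2 encodes calponin 2, an actin-binding protein found in epithelial as well as muscle cells, and its promoter window holds 1 CArG box. CNN2 (ENSG00000064666, chr19:1026586-1039068) was at 11304, 10582 and 10897 normalized counts in KYSE70 and at 15134, 14562 and 13751 in NRF2null-KYSE70. The lines did not overlap. The means, 10928 ± 362 and 14482 ± 695 (SD, n = 3 each), gave a ratio of 1.33 and a log2 fold change of 0.41 ± 0.050 (SE), with an adjusted p of 1.56e-05 by limma. For the other calponins the log2 fold change was -0.030 (CNN1, adjusted p = 0.870 by limma) and 0.017 (CNN3, adjusted p = 0.813 by limma), with 95% intervals of -0.33 to 0.27 and -0.10 to 0.14. CNN2 gave 73.4% of calponin RPKM in KYSE70 and 78.3% in NRF2null-KYSE70.

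FLNA encodes filamin A, a large dimer that crosslinks actin filaments into networks and ties them to membrane receptors. FLNA (ENSG00000196924, chrX:154348524-154374634) was at 58323, 49828 and 49332 normalized counts in KYSE70 and at 72072, 56364 and 55414 in NRF2null-KYSE70. The first KYSE70 library lay above 2 of the null libraries, so the lines overlapped. The means were 52494 ± 5054 and 61283 ± 9355 (SD, n = 3 each), and the log2 fold change of 0.22, with a 95% interval of 0.015 to 0.42, missed the threshold (adjusted p = 0.0631 by limma). It passed with DESeq2 (adjusted p = 0.0294) and edgeR (adjusted p = 0.0442) on the recovered reads. With 1 library left out it passed by limma without KYSE70 library 1 (adjusted p = 0.0225), without NRF2null-KYSE70 library 2 (adjusted p = 0.0448) and without NRF2null-KYSE70 library 3 (adjusted p = 0.0298). The fold change was 0.30 on the log2 scale without KYSE70 library 1 and 0.095 without NRF2null-KYSE70 library 1.

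VCL encodes vinculin, which links actin filaments to integrin adhesions and to cell-cell junctions. VCL (ENSG00000035403, chr10:73995193-74121363) was at 19266, 17590.1 and 17798 normalized counts in KYSE70 and at 31749, 27574 and 26847 in NRF2null-KYSE70. Every null library was above every parental library. The means were 18218 ± 913 and 28723 ± 2645 (SD, n = 3 each), a ratio of 1.58, and the log2 fold change was 0.65 ± 0.064 (SE) with an adjusted p of 1.98e-06 by limma. It ranged from 0.54 to 0.70 over the alternative settings. AP3M1, on the opposite strand, shares 1109 exonic bases with VCL and had a log2 fold change of 0.088 (adjusted p = 0.117 by limma).

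The rest of the pathway did not move in one direction. Of the partners of SRF, 5 of 6 were tested, and MYOCD, the muscle partner, was not. MRTFA was at 2522 ± 86.4 normalized counts in the parental line and 2604 ± 137.6 in the null line (log2 fold change 0.045, 95% interval -0.084 to 0.17, adjusted p = 0.543 by limma). MRTFB fell by 0.63 on the log2 scale (adjusted p = 6.11e-06 by limma), from 3472 ± 188 to 2239.7 ± 194 normalized counts, and its neighbours had a median of -0.39, relative to which it was lower by 0.24 and passed. Of the ternary complex factors, named here after their values were seen, ELK1 was higher by 0.74 (adjusted p = 2.56e-08 by limma). ELK3 had a log2 fold change of -0.19 and ELK4 of 0.17, both past the threshold, and both changed sign once the medians of their neighbours were subtracted. ELK3 then passed in the other direction, at 0.34 (adjusted p = 0.000285 by limma). ELK4, at -0.14, then did not pass (adjusted p = 0.0765 by limma). The ELK3 call was lost without KYSE70 library 1 (adjusted p = 0.0678), KYSE70 library 2 (0.0553) or NRF2null-KYSE70 library 2 (0.0506). That of ELK4 was lost without KYSE70 library 2 (0.113) or library 3 (0.132) and without NRF2null-KYSE70 library 1 (0.0986) or library 2 (0.0924).

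Of 28 other cytoskeletal targets of MRTF and SRF, 25 were tested, of which 11 were higher and 10 lower at the adjusted p threshold (29.3% and 28.3% of all tested genes), with a median log2 fold change of 0.11. ZYX, which encodes the adhesion protein zyxin, rose by 1.75 on the log2 scale (adjusted p = 1.05e-06 by limma), from 84.9 ± 9.18 to 287.6 ± 9.19 normalized counts. SMTN, with the CArG box shown above, was higher by 0.72 (adjusted p = 4.79e-06 by limma). Of 8 immediate early genes that SRF controls with ternary complex factors, 7 were tested and 6 were higher (29.3% of all tested genes), with a median of 0.66. FOSB, a subunit of AP-1, was highest among them and went from 59.5 ± 10.9 to 165.9 ± 19.7 normalized counts (log2 fold change 1.47, adjusted p = 5.99e-05 by limma).

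Of 22 focal adhesion plaque proteins, 15 were higher and 3 lower, with a median of 0.39, and 5 were higher and 2 lower at both thresholds. The shares over all tested genes were 29.3% higher and 28.3% lower, and 7.23% and 7.43% at both thresholds. ZYX and TLN1 belonged both to this list and to the other cytoskeletal targets, so the counts of these lists share genes. LIMS2, a partner of integrin-linked kinase, rose by 2.05 (adjusted p = 8.23e-07 by limma). PXN, which encodes paxillin and was named after its value was seen, rose by 1.33 (adjusted p = 4.47e-10 by limma). PARVB, an actin-binding partner of integrin-linked kinase, fell by 1.30 (adjusted p = 1.62e-07 by limma), and FERMT1, an integrin activator of epithelia, fell by 1.13 (adjusted p = 6.37e-10 by limma), its neighbours having a median of -0.72. Relative to that median FERMT1 fell by 0.41 and passed.

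**Figure D4:**
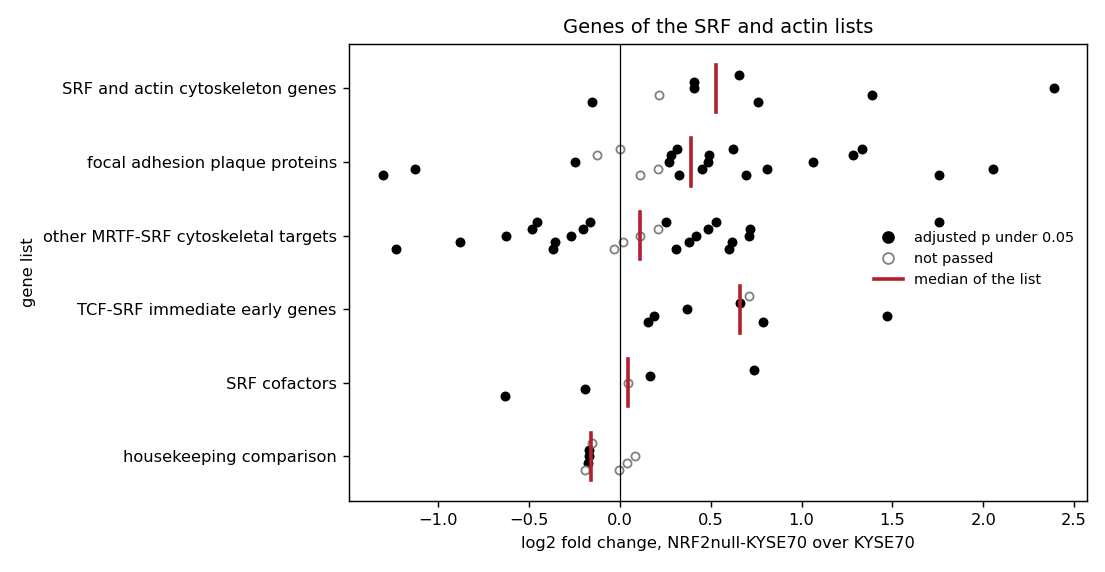
Log2 fold changes of the tested genes of each list, filled where the adjusted p was under 0.05 by limma and open where it was not, with the median of each list as a red line. Focal adhesion plaque proteins (median 0.39) and immediate early genes (0.66) lie mostly to the right of 0, whereas other MRTF and SRF targets (0.11) lie on both sides.

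Tested genes with and without a CArG box in a promoter window are set side by side here, with no test. Of 160 tested genes with a box in a window, 35.6% were higher and 30.6% lower, with a median log2 fold change of 0.011. Of 10578 tested genes with a window and no box, 32.2% were higher and 30.1% lower, with a median of 0.0098. Within the lists, 4 of 5 actin isoforms with a window held a box, as did 7 of 27 other cytoskeletal targets, 2 of 6 immediate early genes and 2 of 18 focal adhesion plaque proteins. None of 5 SRF partners and none of 7 housekeeping genes held one.

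Several of the 10 genes also shared the library in which they were highest within a line. In both lines, SRF, CNN2, FLNA and VCL were highest in the library listed first, that is 4 of the 8 tested genes. This was so for 21.7% of all tested genes, and for 31.3% of those with a mean of at least 1000. Of the 10 genes, those with a mean of at least 1000 were these 4, ACTB and TPM1. The first library lay above the mean of its line by 0.16 in KYSE70 and 0.24 in NRF2null-KYSE70 for FLNA, and by 0.093 and 0.15 for SRF, on the log2 scale. TPM1 stayed within 0.04 of the mean of its line in every library. Library numbers are the order in the table and pair nothing across the lines. Without NRF2null-KYSE70 library 1 the log2 fold change was 0.33 for SRF and 0.58 for VCL, both past the threshold.

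**Figure D5:**
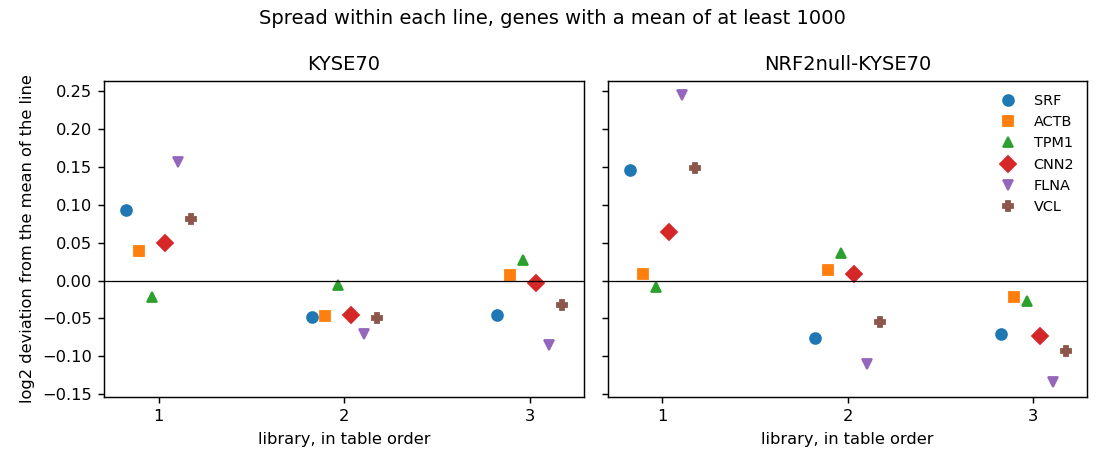
Log2 deviation of each library from the mean of its own line for the 6 genes with a mean of at least 1000 normalized counts, with libraries in table order. SRF, CNN2, FLNA and VCL are above 0 in the first library of both lines, FLNA by 0.16 and 0.24, whereas TPM1 stays close to 0.

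The genes whose pattern was most like that of SRF over the 6 libraries, among those with a mean of at least 1000 normalized counts, were CDV3, ATP13A2 and SOWAHC. Their root mean square distances from the centred log2 profile of SRF were 0.0183, 0.0199 and 0.0209.

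Markers of other cell types gave the following values beside these results. Summed smooth muscle markers were at 1592 to 1782 normalized counts in KYSE70 and at 2482 to 2792 in NRF2null-KYSE70, of which SMTN was the largest part, and 3 of 8 were tested. Summed fibroblast markers were at 3851 to 3973 in KYSE70 and 3039 to 3454 in NRF2null-KYSE70, with COL1A2 and DCN at 0 in all libraries. Of 8, 3 were tested, of which COL1A1 and COL3A1 were lower, both past both thresholds, and THY1 was higher. Of 4 endothelial markers only VWF was tested and it was higher, with sums of 133 to 149 and 275 to 450.3 normalized counts. Of 4 blood markers only PTPRC was tested and it was higher, with sums of 7.26 to 22.1 and 40.2 to 47.9. The log2 fold change of PTPRC was 5.13, so at these sums it reached the mean of 10 only through the null line. The part of such genes in the differences above was not tested. In bulk RNA, a change in the share of cells of one kind and a change in RNA per cell cannot be told apart.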

How the data were processed

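RNA-seq measured 6 libraries, 3 of KYSE70 and 3 of NRF2null-KYSE70. Per the study's methods, reads were aligned with STAR to hg38 and counted per gene with featureCounts. The submitters' processing notes list STAR 2.6.90c, featureCounts 1.5.1, cutadapt 1.12 and FastQC 0.11.5. Use of strand and treatment of reads with several alignments are not given in the sources used here. The authors normalized the counts with DESeq2, so the deposited signal is a gene's reads over the size factor of its library. Column names gave the line alone, which set the groups, and libraries were numbered by table order.

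Whole reads were recovered, because values fell on whole steps of 0.889 to 1.14 normalized counts per read (100% of values within 0.1 of a whole number). RPKM was computed from these reads with exon unions of GENCODE version 44, in which 58472 of 58884 identifiers were found. Intervals of counts and the floor of 3 reads cover counting error only. limma 3.58.1 (R 4.3.3, eBayes with trend) was fitted to log2(normalized count + 1) over genes with a mean of at least 10, with the line as the only term, and p-values were adjusted by Benjamini-Hochberg. Thresholds were an adjusted p under 0.05 and, where stated, a log2 fold change of 1 or more in size. Fold changes of genes with few reads are understated by the pseudocount. Two-sided tests and 95% intervals were used. The fit was run on simulated data in which far fewer genes differed than were called here, so that run does not cover these conditions. The 18 alternatives were a pseudocount of 0.1 or 5, a minimum mean of 50 or none, 3 other normalizations (total, TMM, quantile), eBayes without trend or robust, DESeq2 1.42.0 or edgeR 4.0.16 on the recovered reads, leaving out each of the 6 libraries, and subtracting from each gene the median over the 20 protein-coding genes on each side of it (relative to neighbouring genes).

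The genes and lists (140 symbols, all found) were chosen with earlier results of these data known. Named genes were the 10 genes, ACTG1, MRTFA, MRTFB, the 2 highest and 2 lowest genes of each list among those past both thresholds, and the 3 genes most like SRF. Others are marked as chosen after their values were seen. Items withheld from this text are not reported here.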

Additional observations from a re-analysis of the deposited data

How the results depend on the processing

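SRF, TPM1, CNN2 and VCL kept their direction and their call under all 18 alternatives. ACTB was no longer past the threshold without a filter (-0.15, adjusted p = 0.0630) or with quantile normalization (-0.12, adjusted p = 0.0673). TAGLN lost its call without a filter (0.76, adjusted p = 0.0813) and relative to neighbouring genes (0.68, adjusted p = 0.0509), and TPM2 lost its call without the trend (2.39, adjusted p = 0.0801). TPM2 was not tested at a minimum mean of 50. FLNA passed with DESeq2 (0.22), with edgeR (0.22) and relative to neighbouring genes (0.37, adjusted p = 0.00471), and by limma without KYSE70 library 1, NRF2null-KYSE70 library 2 or NRF2null-KYSE70 library 3 (adjusted p = 0.0225, 0.0448 and 0.0298). With 1 library left out, the log2 fold change ranged from -0.17 to -0.13 for ACTB, 0.65 to 0.96 for TAGLN, 1.63 to 3.13 for TPM2 and 0.095 to 0.30 for FLNA.

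Of the list genes named, ACTG1, ELK3, ELK4 and TPM3 lost their call under at least 1 alternative, ACTG1 and ELK4 also without a filter (adjusted p = 0.0645 and 0.0569) and without the trend (0.0555 and 0.125), and ELK4 with quantile normalization (0.112) and total scaling (0.225). Relative to neighbouring genes, ELK3 passed in the other direction (0.34, adjusted p = 0.000285 by limma).

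The count of lower genes among the 10 was 1 and became 0 without a filter and with quantile normalization by limma (1 at an unadjusted p under 0.05 in both, and 1 by DESeq2 and by edgeR), and 0 to 1 with 1 library left out. The count of higher genes past both thresholds was 2 and became 1 at a minimum mean of 50, without the trend and relative to neighbouring genes, and 1 to 2 with 1 library left out. Lower actin isoforms numbered 2. They became 0 without a filter by limma (2 at an unadjusted p under 0.05, and 2 by DESeq2 and by edgeR), 1 with quantile normalization, without the trend and relative to neighbouring genes, and 0 to 2 with 1 library left out. Higher SRF partners numbered 2 and became 1 without a filter, with quantile normalization, with total scaling and without the trend. Lower SRF partners numbered 2 and became 1 relative to neighbouring genes. Both counts were 1 to 2 with 1 library left out. Lower housekeeping genes numbered 3 and became 5 with quantile normalization and with total scaling, 1 without the trend, and 1 to 5 with 1 library left out, and higher ones numbered 0 to 1 in those fits. Higher immediate early genes numbered 6 and became 5 with quantile normalization and relative to neighbouring genes. They became 4 with total scaling and without the trend, and 4 to 6 with 1 library left out. The cause of these changes was not tested. No paired analysis was possible because replicate numbers were missing from the column names. Few reads limit ACTA2, MYL9, TPM2 and TAGLN, and none of these levels bears on protein.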
